A study of Mus musculus with 142 samples.

Results

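Oligodendrocyte cultures grown from the brainstem and from the dorsal telencephalon of control mice were compared after 5 days of differentiation, in 18 RNA-seq libraries of a series that holds 124 others. The libraries were taken by their labels, as every control well of either region at day 5. No measured value entered that rule, but earlier results of these data were known when the groups were chosen. There were 9 brainstem wells and 9 telencephalon wells, from 3 cultures per region (38, 41 and 42) with 3 wells each. The series followed such cultures from oligodendrocyte progenitor cells (OPCs) through differentiation, with and without the histone mutation K27M, and the comparison asks how control cells of the 2 regions differ once differentiated.

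All control cells came from AMGFAP-Cre;K27M litters (hGFAP-Cre in the study's methods) on an FVB background, in which a Cre driven by the human GFAP promoter deletes a stop cassette before the K27M allele of H3-3a. The controls are littermates, and the alleles each animal carried are not given in the sources used here. Brains were taken at P5 to P7. Dorsal telencephalon (cortex, corpus callosum and hippocampus) and brainstem were pooled by region and genotype, so a culture stands for a pool of animals. Its 3 wells come from those cells, in telencephalon cultures 41 and 42 not all at the same passage. Endothelial cells and microglia were depleted on a lectin-coated dish, and OPCs were then captured with an antibody against PDGFRa. The cells were expanded in medium with forskolin, CNTF, neurotrophin-3 and PDGF. For differentiation they received medium with forskolin, CNTF and thyroid hormone. Brainstem cultures 38, 41 and 42 were at passages 4, 5 and 7, while telencephalon cultures were at passage 2, passages 2 to 3 and passages 1 to 2. The labels place the libraries in 4 batches and no batch held both regions: telencephalon culture 38 in batch 1, telencephalon cultures 41 and 42 in batch 2, brainstem culture 38 in batch 3 and brainstem cultures 41 and 42 in batch 4. Region and batch therefore cannot be told apart, and no within-batch value exists. In bulk RNA, fewer cells of a type and less RNA per cell cannot be told apart either.

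Libraries held 35.6 to 56.4 M estimated read counts, except for well 3 of brainstem culture 38, which held 455 M counts. Wells of brainstem cultures 41 and 42 had counts for 24905 to 33752 genes and telencephalon wells for 22726 to 28118. Leaving out the 3 wells of brainstem culture 41 and the 2 wells of culture 42 with the most genes, which removes a whole culture, gave 965 calls in place of the 2010 given below, against 896 without culture 41 alone, and leaving out the deepest well gave 2421. Mitochondrially encoded transcripts took 2.17 to 2.45% of counts in brainstem culture 38, 10.6 to 11.6% in brainstem culture 41, 6.31 to 8.80% in brainstem culture 42 and 5.85 to 9.32% in telencephalon wells. Markers of the labelled cell type were present. The 41 myelin and mature oligodendrocyte genes summed to 59470 to 83240 CPM (median 71110) in brainstem wells and 41100 to 94070 CPM (median 77050) in telencephalon wells, where CPM is the counts-per-million value after scaling for library size. The microglial list summed to 23.4 to 44.5 CPM (median 24.7) in brainstem wells and 29.0 to 47.3 CPM (median 31.6) in telencephalon wells. The defining markers Tmem119 and Csf1r, named after their values were seen, were near 0 in both regions: Tmem119 reached at most 0.253 and 0.280 CPM and Csf1r 0.283 and 0.111 CPM. Astrocyte genes were not, and they are described below.

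OPCs arise in every part of the neural tube and mature into oligodendrocytes, which wrap axons in myelin. The tube is patterned from front to back by transcription factors. Emx2 and Otx1 mark the forebrain, whereas Hox genes, arranged in clusters and numbered by paralog group, mark the hindbrain and spinal cord with higher groups further back. Cells often keep such positional expression in culture.

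The promoters of a gene from each end of this axis are shown as examples of the positional genes described next. Each run covers 250 bases before to 50 bases after the start site (RefSeq, GRCm38.p6), written 5′ to 3′ on the gene's strand. Hoxa2 specifies hindbrain segments and lies at chr6:52162417-52164831 on the minus strand, and its promoter window at chr6:52164782-52165081. Emx2 patterns the cortex and lies at chr19:59458372-59465357 on the plus strand, with its window at chr19:59458440-59458739. Capitals mark the motif TGATNNAT, an octamer bound by Hox-Pbx pairs, searched on both strands.
Hoxa2: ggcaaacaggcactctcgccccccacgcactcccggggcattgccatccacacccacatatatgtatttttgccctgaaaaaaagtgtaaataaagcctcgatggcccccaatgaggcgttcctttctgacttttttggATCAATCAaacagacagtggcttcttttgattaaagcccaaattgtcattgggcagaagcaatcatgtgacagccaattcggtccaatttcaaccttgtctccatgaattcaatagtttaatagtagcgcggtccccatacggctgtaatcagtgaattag
Emx2: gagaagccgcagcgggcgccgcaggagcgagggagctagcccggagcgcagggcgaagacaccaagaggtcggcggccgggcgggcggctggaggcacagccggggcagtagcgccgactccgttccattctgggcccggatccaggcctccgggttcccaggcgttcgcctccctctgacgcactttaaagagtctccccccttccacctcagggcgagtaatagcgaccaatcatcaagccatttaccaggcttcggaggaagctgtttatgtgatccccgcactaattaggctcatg
The Hoxa2 window held 1 match and 9 CG dinucleotides, and the Emx2 window no match and 26 CG dinucleotides. Of all 32851 promoter windows of that length, 8.85% held the motif and the median was 7 CG dinucleotides. The table held 9 of the 12 named Hox genes, and 1 of them had a match. Hoxa4 and Pax3 have no entry.

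Genes that differed between the regions included positional transcription factors, matrix and adhesion genes, receptors and guidance molecules, while 2 of 41 myelin genes differed. Of 23006 genes tested, 2010 (8.74%) differed at an adjusted p under 0.05, 598 (2.60%) of them higher in brainstem and 1412 (6.14%) lower. These shares of all genes are the base against which the counts of gene lists below stand. Differences are given as log2 of brainstem over telencephalon ± SE, and adjusted p-values are those of edgeR's quasi-likelihood test on the 3 cultures per region, with Benjamini-Hochberg adjustment over all genes. Of the genes called, 325 were at least 2-fold higher and 916 at least 2-fold lower, and 1933 had the same sign in all 3 pairs of same-numbered cultures. All 9 wells of a region lay above all 9 of the other for 741 of them (210 higher and 531 lower in brainstem), against 983 (4.27%) of all genes. The median log2 difference over all genes was 0.03. The 6 culture sums of these groups fitted alone gave 11 calls with the culture number as a block and 30 without it, so most calls rest on a spread shared with the other groups of the series. Leaving out 1 culture moved the count from 547 (without brainstem culture 42) to 4089 (without brainstem culture 38), with 896 without brainstem culture 41, 868 without telencephalon culture 38, 2463 without telencephalon culture 41 and 615 without telencephalon culture 42. Of 159 named genes that were called, 84 stayed called in all 6 of these fits. With passage number as a covariate 336 genes were called, 65 of the 159 among them. Passages of the day 5 controls did not overlap, at 4 to 7 in brainstem wells and 1 to 3 in telencephalon wells. That fit therefore relies on a linear effect of passage assumed to be the same in all 16 groups of the series. Calls kept or lost with passage, here and below, do not separate region from passage.

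Hox genes were higher in brainstem cultures. Of 39 members, 25 passed the filter on low counts and 16 of these were higher in brainstem, none lower, with a median log2 difference of 5.73. Summed over all members, brainstem cultures 38, 41 and 42 held 36.3, 27.1 and 43.2 CPM of Hox transcripts and telencephalon cultures 0.199, 1.44 and 0.349 CPM. For Hoxa2, values were 3.96 to 6.72 CPM in brainstem wells, median 5.25, and 0 to 0.0593 CPM in telencephalon wells, median 0 (9.07 ± 0.55, adjusted p = 8.5e-13). From 4235 counts against 3, pooled over wells, its ratio was 619 (95% counting interval 212 to 3002). Well 3 of brainstem culture 38, with 455 M counts, weighs most in such pooled counts. For Hoxd4, values were 1.70 to 4.94 CPM in brainstem wells, median 4.04, and 0 to 0.0593 CPM in telencephalon wells, median 0 (8.46 ± 0.56, adjusted p = 1.8e-11), and for Hoxa5 2.06 to 7.41 CPM in brainstem wells, median 4.17, and 0 to 0.0324 CPM in telencephalon wells, median 0.0269 (8.04 ± 0.60, adjusted p = 9.5e-11). Hoxa4 (8.54 ± 0.51, adjusted p = 1.6e-12), Hoxb2 (6.93 ± 0.52, adjusted p = 1.7e-10) and Hoxa3 (7.24 ± 0.70, adjusted p = 1.0e-08) also had no overlap between wells of the 2 regions. Hoxa6 had 236 pooled counts in brainstem and 0 in telencephalon, at least 34.5-fold higher against a floor of 3 counts over the group.

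The Hox genes expressed belonged to the lower paralog groups. Of 23 genes in groups 1 to 8, 15 were called and 10 averaged at least 1 CPM in brainstem. Of 16 genes in groups 9 to 13, 3 passed the filter on low counts, Hoxd9 was called (4.18 ± 1.33, adjusted p = 0.045) and none averaged 1 CPM. Brainstem cultures differed among themselves in the more posterior groups. Groups 6 to 9 took 45% of Hox CPM in brainstem culture 42 against 14.0% in culture 38 and 10.1% in culture 41. Hoxd8 held 1.96, 0.692 and 9.32 CPM in brainstem cultures 38, 41 and 42, and Hoxa7 1.92, 0.582 and 6.08 CPM, so culture 42 was highest for both. Hoxd8 (7.06 ± 1.41, adjusted p = 0.0015) and Hoxa7 (6.21 ± 0.97, adjusted p = 7.3e-05) stayed called without culture 42 (adjusted p = 0.016 and 0.0011). Neighbouring Hox genes overlap in the annotation, and estimated counts can be divided between them.

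Among 29 other hindbrain and midbrain transcription factors, 10 were higher and 3 lower in brainstem, with a median of 1.20. Irx1, an Iroquois homeodomain factor of hindbrain and spinal cord patterning, had 8.88 to 22.6 CPM in brainstem wells, median 12, and 0.251 to 0.698 CPM in telencephalon wells, median 0.465 (4.86 ± 0.39, adjusted p = 1.5e-10). Its relatives Irx2 (5.5 ± 0.53, adjusted p = 1.1e-08) and Irx5 (3.57 ± 0.41, adjusted p = 3.7e-07) were likewise higher in every brainstem well than in any telencephalon well. Pax3, a factor of the dorsal neural tube, had 2.05 to 6.16 CPM in brainstem wells, median 3.34, and 0 to 0.243 CPM in telencephalon wells, median 0.0509 (6.14 ± 0.72, adjusted p = 6.1e-07). For Zic1, a zinc-finger factor of the dorsal hindbrain, values were 8.20 to 22.8 CPM in brainstem wells, median 13.4, and 2.38 to 4.38 CPM in telencephalon wells, median 3.1 (2.15 ± 0.31, adjusted p = 2.4e-05). Msx1, a homeodomain factor of the dorsal midline and a BMP target, was higher too (1.55 ± 0.38, adjusted p = 0.0080). These calls held in all 6 leave-one-out fits, and all but that of Msx1 (adjusted p = 0.16) held with passage as a covariate. En2, a midbrain and hindbrain factor named after its values were seen, had 23.5 to 53.6 CPM in brainstem wells, median 42.5, and 13.1 to 41.8 CPM in telencephalon wells, median 23.2, with overlapping wells and no call (0.71 ± 0.49).

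Telencephalic factors showed the reverse. Of 27 tested, 9 were lower in brainstem and 1 higher, with a median of -0.49. That median varied: it was -1.06, 0.02 and -1.37 in the pairs of cultures 38, 41 and 42. Without the 5 brainstem wells with the most genes, left out above, it was -2.32. At day 0 it was -1.95 in controls, and at day 5 -4.36 in K27M cultures. The cause of this variation was not tested. Emx2 had 0 to 0.184 CPM in brainstem wells, median 0.0783, and 2.19 to 4.57 CPM in telencephalon wells, median 2.69 (-5.44 ± 0.52, adjusted p = 1.4e-08) and Otx1 0 to 0.227 CPM in brainstem wells, median 0.0507, and 0.849 to 3.42 CPM in telencephalon wells, median 1.31 (-4.69 ± 0.63, adjusted p = 7.4e-06). For both genes the telencephalon wells stood above every brainstem well. Dmrta2, a factor of cortical progenitors, was lower in brainstem with overlapping wells (-2.05 ± 0.36, adjusted p = 2.9e-04). All 3 calls held in every leave-one-out fit and with passage as a covariate. The Hox cofactors Meis1 (0.66 ± 0.20, adjusted p = 0.030) and Meis2 (-0.88 ± 0.22, adjusted p = 0.011) differed in opposite directions, but Meis1 lost its call in 5 of the 6 leave-one-out fits (up to adjusted p = 0.14, without telencephalon culture 38; held only without telencephalon culture 41) and Meis2 without brainstem culture 42 (0.14) or telencephalon culture 42 (0.11).

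**Figure D1:**
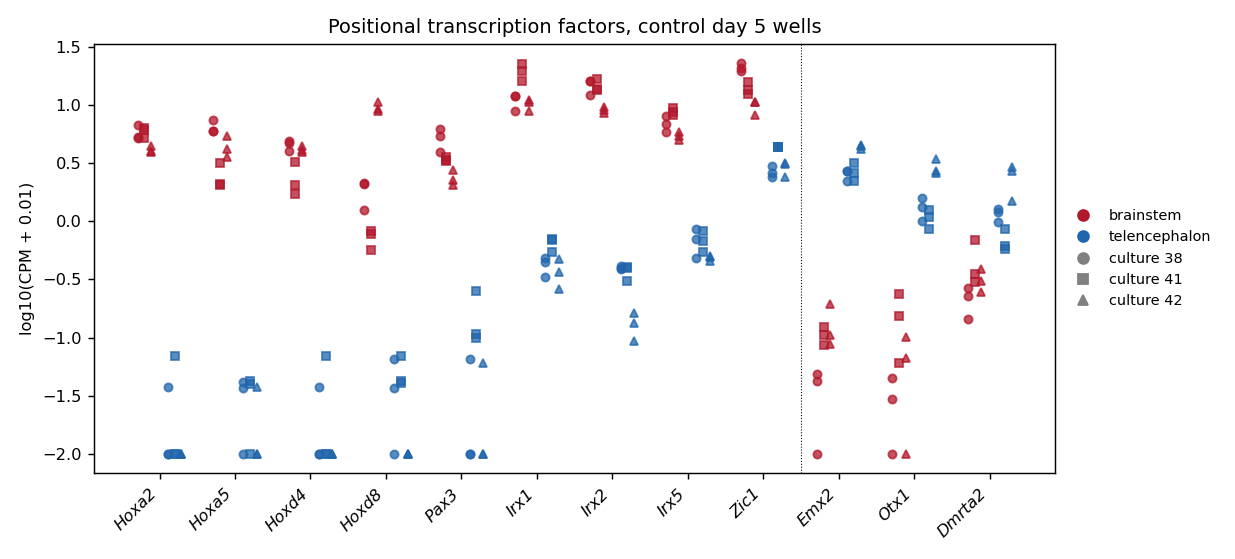
Expression of 12 positional transcription factors in each of the 18 day 5 control wells, as CPM on a log10 axis with 0.01 CPM added. Marker shape gives the culture and colour the region. Hoxa2 wells lay between 3.96 and 6.72 CPM in brainstem and at most at 0.0593 CPM in telencephalon, and Emx2 wells between 2.19 and 4.57 CPM in telencephalon and at most at 0.184 CPM in brainstem.

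Markers of oligodendrocyte maturity did not separate the regions. Of 41 myelin and mature oligodendrocyte genes none was higher and 2 were lower in brainstem, with a median of 0.00. For abundant structural myelin genes the intervals were wide: Mbp, myelin basic protein, 0.00 ± 0.96 (95% interval -1.87 to 1.88), Mobp 0.03 ± 1.34 (-2.59 to 2.66) and Mag 0.00 ± 1.02 (-2.01 to 2.00). The narrowest interval among the 6 most abundant was that of Cldn11, the tight-junction protein of myelin (-0.03 ± 0.34, -0.69 to 0.64). For Mbp, levels were 10240 to 17930 CPM in brainstem wells, median 13510, and 8878 to 18430 CPM in telencephalon wells, median 15350, and for Mobp 5008 to 8381 CPM in brainstem wells, median 6859, and 3531 to 10090 CPM in telencephalon wells, median 6585. The ranges of the 2 regions overlapped. The intervals rest on a spread shared by all 16 groups of the series, day 0 included, and do not measure the spread of the day 5 cultures alone. Differences inside them were not detectable in this fit. The exception was Gsn, which encodes the actin-severing protein gelsolin, at 295 to 848 CPM in brainstem wells, median 612, and 842 to 2320 CPM in telencephalon wells, median 1540 (-1.42 ± 0.23, adjusted p = 1.0e-04). Evi2a, the other lower gene (-1.32 ± 0.41, adjusted p = 0.037), was not called without brainstem culture 41 (adjusted p = 0.16), brainstem culture 42 (0.20), telencephalon culture 38 (0.29) or telencephalon culture 41 (0.062). Of 25 genes of committed and newly formed oligodendrocytes, 1 was lower, Bmp4, a BMP ligand of differentiating progenitors (-2.65 ± 0.82, adjusted p = 0.037), and its call was lost in each leave-one-out fit (adjusted p = 0.054 to 0.15).

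Progenitor genes moved both ways. Of 28 OPC genes, 6 were higher and 6 lower in brainstem, with a median of 0.18. Kcnip3, a calcium-binding channel partner, had 84.5 to 137 CPM in brainstem wells, median 115, and 47.7 to 64.9 CPM in telencephalon wells, median 51.6 (1.07 ± 0.24, adjusted p = 0.0048). Vcan, the chondroitin sulfate proteoglycan versican, was higher (0.88 ± 0.20, adjusted p = 0.0055), but not without telencephalon culture 38 (adjusted p = 0.078). Matn4, a matrix adaptor of the matrilin family, was lower with 9.43 to 29.5 CPM in brainstem wells, median 12, and 31.7 to 68.7 CPM in telencephalon wells, median 40.8 (-1.42 ± 0.27, adjusted p = 7.3e-04), and so were Emid1 (-3.79 ± 0.69, adjusted p = 5.2e-04) and Rlbp1, a retinaldehyde-binding protein (-1.25 ± 0.28, adjusted p = 0.0046). Ednrb, the endothelin receptor B, was lower (-1.80 ± 0.44, adjusted p = 0.0084), with 215, 43.9 and 55.9 CPM in brainstem cultures 38, 41 and 42, and lost its call without brainstem culture 41 (0.084), brainstem culture 42 (0.11) or telencephalon culture 42 (0.063). The PDGF receptor Pdgfra, on which the cells were captured and which was named after its values were seen, had 106 to 245 CPM in brainstem wells, median 156, and 81.7 to 118 CPM in telencephalon wells, median 96.4 (0.78 ± 0.29, adjusted p = 0.089). Of 30 lineage transcription factors 3 were lower and none higher. Those 3 (Id4, Id3 and Hes1) are targets of BMP or Notch signalling. The lineage factors Olig1 (-0.20 ± 0.21), Sox8 (0.06 ± 0.32), Zeb2 (0.12 ± 0.22) and Myrf, the master regulator of myelin genes (0.38 ± 0.61), were not called. Without brainstem culture 41, brainstem culture 42, telencephalon culture 38 or telencephalon culture 42, Id3 (-1.70 ± 0.50, adjusted p = 0.029; adjusted p = 0.14, 0.22, 0.074 and 0.15) and Hes1 (-1.52 ± 0.49, adjusted p = 0.045; 0.18, 0.27, 0.13 and 0.14) were not called, nor was Hes1 without telencephalon culture 41 (0.057), and neither was called with passage. Id4 (-2.12 ± 0.52, adjusted p = 0.0092) was not called without brainstem culture 41 (0.067), brainstem culture 42 (0.098) or telencephalon culture 42 (0.084). Nor was Id4 called with passage as a covariate.

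Cell-cycle genes lay on the brainstem side without passing the test for most members. All 25 cycling genes tested had a log2 difference above 0 (median 1.08, against 12366 of 23006 genes above 0), yet only 2 were called. All 30 DNA replication genes were above 0 as well (median 0.61), with 1 called. Without brainstem culture 38, 15 of the cycling genes (median 1.38) and 13 of the replication genes (median 0.72) were called higher. With passage as a covariate, or without the 5 brainstem wells left out above, no gene of either list was called. Mki67, the proliferation antigen Ki67, had 53.9, 179 and 97.4 CPM in brainstem cultures 38, 41 and 42 and 34.4, 51.8 and 34.3 CPM in telencephalon (1.47 ± 0.42, adjusted p = 0.025). Culture 41 was the highest of its region in both. The 3 called genes, Mki67, the spindle kinase Ttk (1.37 ± 0.44, adjusted p = 0.044) and the helicase subunit Mcm6 (1.19 ± 0.34, adjusted p = 0.024), all lost their calls in the same fits: without brainstem culture 41 (adjusted p = 0.31, 0.30 and 0.26), brainstem culture 42 (0.068, 0.10 and 0.067), telencephalon culture 38 (0.13, 0.19 and 0.10) and telencephalon culture 42 (0.14, 0.19 and 0.13). Brakes on the cycle were split, with 2 of 21 higher and 2 lower. Cdkn2a, encoding p16 and p19ARF, had 5.90, 11.8 and 19.2 CPM in brainstem cultures and 2.31, 4.17 and 1.25 CPM in telencephalon (2.17 ± 0.67, adjusted p = 0.037), and was at its highest in the culture of passage 7. Its neighbour Cdkn2b, encoding p15, was lower (-1.25 ± 0.36, adjusted p = 0.025). Both lost their calls without brainstem culture 41 (0.12 and 0.15), brainstem culture 42 (0.18 and 0.19), telencephalon culture 38 (0.17 and 0.16) or telencephalon culture 42 (0.22 and 0.090). With passage as a covariate Cdkn2a had an adjusted p of 0.94.

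Markers of other cell types also differed, astrocyte genes among them. None of 21 astrocyte genes had a log2 difference above 0 (median -1.75), and 6 were lower in brainstem. With passage as a covariate none of the 21 was called and the median was -0.10. Because passages of the 2 regions did not overlap, that fit cannot tell a part of passage from one of region. Without the 5 brainstem wells named above, 1 of the 21 was called, and from the 6 culture sums alone without the block none. Without brainstem culture 38, all 21 were called lower, with a median of -3.545. Their summed level was 4203, 561 and 717 CPM in brainstem cultures 38, 41 and 42 and 9229, 4046 and 15770 CPM in telencephalon cultures 38, 41 and 42. Wells of telencephalon culture 42 held 19940 and 19580 CPM at passage 1. Its well of passage 2 held 8966 CPM, below the sum of culture 38. Telencephalon culture 41 held 5624 CPM at passage 2 and 3497 and 3590 CPM at passage 3. Gfap, the astrocyte intermediate filament, had 39.6 to 1024 CPM in brainstem wells, median 53.1, and 1619 to 10610 CPM in telencephalon wells, median 4479, so wells did not overlap, but the cultures varied and it was not called (-3.43 ± 1.22, adjusted p = 0.074). It was named, with Aqp4, the astrocyte water channel (-2.09 ± 1.34, adjusted p = 0.36), after its values were seen. Slc1a3, the glutamate transporter GLAST, had 241, 36.5 and 37.5 CPM in brainstem and 559, 241 and 751 CPM in telencephalon cultures (-2.33 ± 0.55, adjusted p = 0.0066). Its call was lost without brainstem culture 41 (0.064), brainstem culture 42 (0.088) or telencephalon culture 42 (0.051). Clu, clusterin (-2.13 ± 0.68, adjusted p = 0.045), was lost without brainstem culture 41 (0.22), brainstem culture 42 (0.27), telencephalon culture 38 (0.19) or telencephalon culture 42 (0.15).

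This order of cultures ran through the genes lower in brainstem. Of the 1412, 998 (70.7%) were lowest in telencephalon culture 41 and highest in 42, as the astrocyte sum was, against 19.9% of all genes, and 72.4% were highest in culture 38 among brainstem cultures, against 47.1%. Brainstem culture 38 and telencephalon culture 41 had astrocyte sums close to each other, 4203 and 4046 CPM. Between that pair 1042 of the 1412 genes (73.8%) were lower in brainstem, 314 of them at least 2-fold (median -0.34, against 0.11 over all genes). Both cultures had a part in calling these genes lower, so an excess of lower values is built into this count. The pair has no replicate and is alike in the astrocyte sum only: 6 of the 21 astrocyte genes were lower in brainstem in it. Well 3 of brainstem culture 38, with 455 M counts, supplied most counts of that culture. The 2 cultures also differed in batch, passage and mitochondrial share. The part of astrocyte RNA in each gene's difference was not tested. For some of the genes below, that pair's difference is given as the matched pair, matched in the astrocyte sum only.

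Several of the named genes with the lowest ratios of brainstem to telencephalon are described next. C3, complement component 3, had 1.85, 0.236 and 1.44 CPM in brainstem cultures 38, 41 and 42 and 79.3, 14.8 and 163 CPM in telencephalon (-5.81 ± 1.03, adjusted p = 4.1e-04), with a matched pair difference of -2.99. Lbp, the lipopolysaccharide-binding protein (-6.36 ± 0.93, adjusted p = 2.9e-05), and Serping1, the C1 inhibitor (-4.05 ± 0.87, adjusted p = 0.0031), were also lower. Lcn2, the siderophore-binding lipocalin (-4.59 ± 1.20, adjusted p = 0.013), was not called without brainstem culture 41 (0.089), brainstem culture 42 (0.11) or telencephalon culture 42 (0.067). Acta2, smooth muscle actin, had 0 to 0.138 CPM in brainstem wells, median 0.0253, and 5.93 to 14.4 CPM in telencephalon wells, median 12.1 (-7.01 ± 1.26, adjusted p = 4.5e-04). Tagln, the actin-binding protein transgelin, had 0.0240 to 0.662 CPM in brainstem wells, median 0.228, and 3.73 to 27.1 CPM in telencephalon wells, median 22.2 (-5.52 ± 1.13, adjusted p = 0.0019). Acta2 and Tagln were called in every leave-one-out fit and with passage (adjusted p = 0.0014 and 0.030), while C3 (0.13), Lbp (0.25), Serping1 (0.25), Lcn2 (0.44) and Ahnak (0.10) were not called with passage. For Acta2 and Tagln, the matched pair differences were -5.66 and -2.95. Acta2 and Tagln stand on the list of endothelial, mural and fibroblast genes, of which 7 of 23 were lower in brainstem. The endothelial marker Pecam1, named after its values were seen, was near 0 in both regions (0.116 to 0.455 CPM in brainstem wells, median 0.261, and 0.0278 to 0.323 CPM in telencephalon wells, median 0.188). Ahnak, a large scaffold protein under the membrane, had 11.5, 1.38 and 1.25 CPM and 132, 19.9 and 163 CPM (-4.32 ± 0.97, adjusted p = 0.0042), with a matched pair difference of -0.79, and was not called without brainstem culture 42 (0.054). Among 11 ependymal and cilia genes 5 were lower, and Dnah9, a ciliary dynein, had a matched pair difference of 0.50 (-1.84 ± 0.48, adjusted p = 0.013). It was not called without brainstem culture 41, brainstem culture 42, telencephalon culture 38 or telencephalon culture 42 (up to 0.14). Of 16 microglial genes 1 was lower, close to the 6.14% of all genes.

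**Figure D2:**
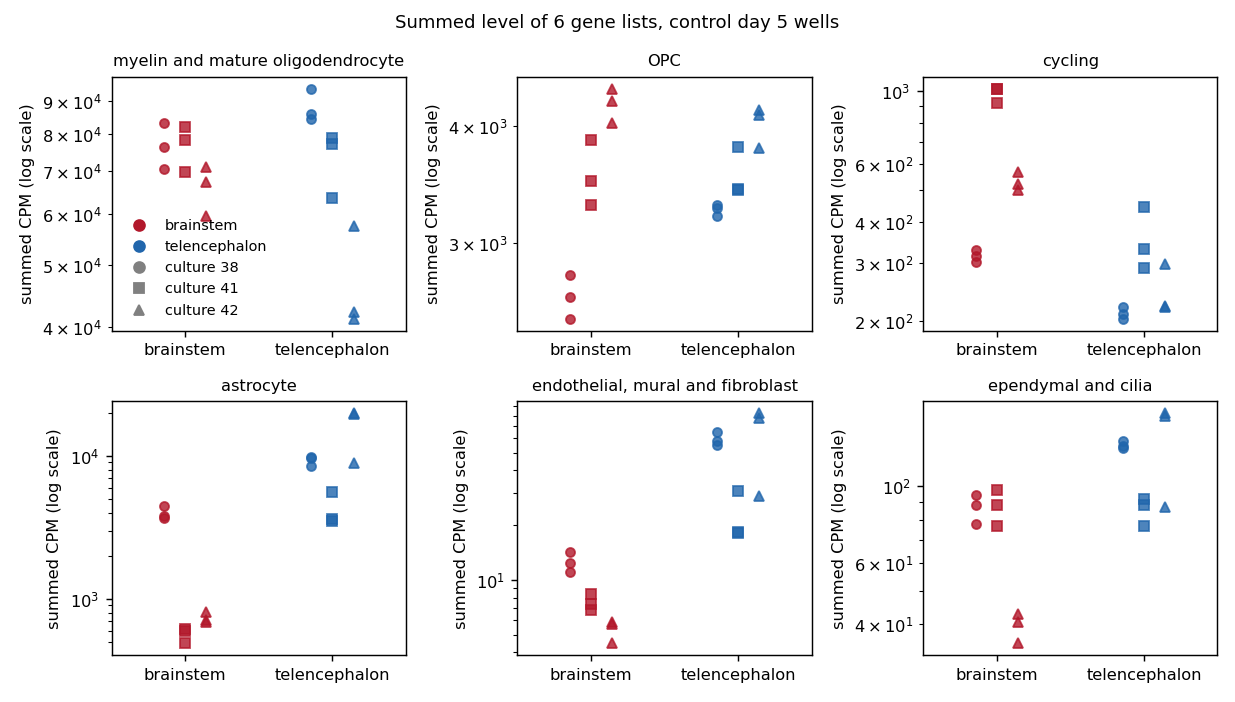
Summed CPM of 6 gene lists in each day 5 control well on a log axis, with marker shape for culture and colour for region. Myelin and OPC sums overlapped between regions, sums of endothelial, mural and fibroblast genes were 4.49 to 14.2 CPM in brainstem and 18 to 82.7 CPM in telencephalon, and astrocyte sums were 488 to 4469 CPM in brainstem and 3497 to 19940 CPM in telencephalon.

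Extracellular matrix genes were called in both directions, and most were not called. Of 43 collagens 12 were lower and 4 higher (median -0.51), and of 39 other matrix and adhesion genes 9 were lower and 3 higher (median -0.67). Col4a1 and Col4a2, the chains of basement membrane collagen IV, share a promoter region and fell together. Col4a1, at chr8:11198423-11312826, had 2.97 to 4.89 CPM in brainstem wells, median 4.04, and 13.2 to 53.3 CPM in telencephalon wells, median 27.1 (-2.91 ± 0.38, adjusted p = 4.2e-06), and Col4a2 0.815 to 1.65 CPM in brainstem wells, median 1.17, and 2.58 to 12.5 CPM in telencephalon wells, median 5.32 (-2.38 ± 0.37, adjusted p = 7.5e-05). Their matched pair differences were -2.19 and -1.77. The matrix glycoproteins Fbln2 (-4.02 ± 0.59, adjusted p = 3.2e-05) and Thbs1 (-5.74 ± 0.83, adjusted p = 2.4e-05), with matched pair differences of -4.22 and -3.61, had no overlap between wells. Nid2, a nidogen that links laminin to collagen IV, was lower (-2.84 ± 0.49, adjusted p = 2.4e-04), as was Dag1, dystroglycan, a laminin receptor (-1.05 ± 0.21, adjusted p = 0.0012). These 6 calls held in all leave-one-out fits, and with passage as a covariate all but that of Dag1 (0.066) held. The collagen VI chain Col6a2 went the other way (1.98 ± 0.42, adjusted p = 0.0030). It had 27, 107 and 16.8 CPM in brainstem cultures 38, 41 and 42 and 11.7, 11.9 and 11.7 CPM in telencephalon, so 1 culture stood high, and the call was lost without that culture, 41 (0.15). Mmp16, a membrane-bound matrix protease, was higher in brainstem, with 44.4 to 73.7 CPM in brainstem wells, median 62.3, and 18.3 to 34.3 CPM in telencephalon wells, median 24.5 (1.29 ± 0.24, adjusted p = 7.4e-04).

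Of 34 integrins and laminins 1 was higher and 4 lower, against 2.60% and 6.14% of all genes. Itga9, an integrin subunit that binds tenascin, was the higher one, with 9.29 to 26.9 CPM in brainstem wells, median 13.9, and 2.13 to 3.95 CPM in telencephalon wells, median 2.67 (2.45 ± 0.32, adjusted p = 4.4e-06). Itga6, the laminin receptor subunit of oligodendrocytes, was lower with 6.05 to 34.8 CPM in brainstem wells, median 10.0, and 40.9 to 147 CPM in telencephalon wells, median 62.7 (-2.20 ± 0.44, adjusted p = 0.0016). Both held in every leave-one-out fit and with passage. Lamb2, a laminin chain, was lower (-3.30 ± 0.95, adjusted p = 0.026), but not without brainstem culture 41 (0.13), brainstem culture 42 (0.17), telencephalon culture 38 (0.099) or telencephalon culture 42 (0.088).

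In the Wnt pathway 13 of 65 genes were lower in brainstem and 3 higher. Lgr5, the R-spondin receptor that amplifies Wnt signals, had 6.16 to 10.6 CPM in brainstem wells, median 8.35, and 0.613 to 1.22 CPM in telencephalon wells, median 0.947 (3.13 ± 0.33, adjusted p = 7.4e-08), and Ror2, a Wnt5a receptor, 0.791 to 3.44 CPM in brainstem wells, median 1.52, and 0.446 to 0.648 CPM in telencephalon wells, median 0.538 (1.78 ± 0.36, adjusted p = 0.0018). Tcf7, a transcription factor of the pathway (-2.14 ± 0.35, adjusted p = 1.1e-04), and the receptor Fzd7 (-1.39 ± 0.29, adjusted p = 0.0022) were lower. Axin2, a common read-out of beta-catenin activity named after its values were seen, had 12.6 to 19.4 CPM in brainstem wells, median 14.1, and 10.5 to 19 CPM in telencephalon wells, median 13.1 and was not called (0.07 ± 0.21, 95% interval -0.34 to 0.47). In the Notch pathway 7 of 35 were lower and 1 higher. Notch2 had 7.79 to 15.2 CPM in brainstem wells, median 10.2, and 30.0 to 87.4 CPM in telencephalon wells, median 41.0 (-2.07 ± 0.35, adjusted p = 2.3e-04) and Notch3 0.283 to 1.29 CPM in brainstem wells, median 0.709, and 1.98 to 6.93 CPM in telencephalon wells, median 2.94 (-2.28 ± 0.42, adjusted p = 5.6e-04), with matched pair differences of -1.13 and -1.49. Cntn1, contactin, an adhesion molecule and Notch ligand of oligodendrocytes, was higher with 541 to 729 CPM in brainstem wells, median 647, and 241 to 376 CPM in telencephalon wells, median 288 (1.13 ± 0.15, adjusted p = 1.0e-05).

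In the BMP pathway 10 of 42 genes were lower and 1, Msx1, higher. Smad9, a BMP-activated transducer, had 1.52 to 3.59 CPM in brainstem wells, median 1.94, and 5.64 to 20.5 CPM in telencephalon wells, median 7.4 (-2.02 ± 0.36, adjusted p = 4.3e-04). The receptor Bmpr1a (-0.84 ± 0.19, adjusted p = 0.0058) had a matched pair difference of 0.07 and was not called without brainstem culture 41 (0.058), brainstem culture 42 (0.11) or telencephalon culture 42 (0.080). Of 27 TGF-beta genes 2 were lower, and of 44 hedgehog and FGF genes 3, both shares close to the 6.14% of all genes. The TGF-beta genes were Ski, a repressor of Smad signals, with 37.1 to 49.9 CPM in brainstem wells, median 43.5, and 58.4 to 86.5 CPM in telencephalon wells, median 64.7 (-0.66 ± 0.12, adjusted p = 3.9e-04), and Tgif1, another repressor (-2.51 ± 0.50, adjusted p = 0.0015). Of the hedgehog and FGF genes, Fgfr1, the FGF receptor of OPCs, had 15.9 to 19.2 CPM in brainstem wells, median 16.6, and 39.8 to 94.7 CPM in telencephalon wells, median 51.2 (-1.77 ± 0.23, adjusted p = 5.0e-06) and a matched pair difference of -1.25. Smo, the hedgehog transducer (-1.31 ± 0.33, adjusted p = 0.011), was near 0 in the matched pair (0.20) and was not called without brainstem culture 41 (0.11), brainstem culture 42 (0.14) or telencephalon culture 42 (0.10). Of 25 growth factor receptor tyrosine kinases 8 were lower and none higher. They included Alk (-1.58 ± 0.24, adjusted p = 5.7e-05), Met, the HGF receptor (-2.45 ± 0.46, adjusted p = 7.5e-04), and Ntrk2, the BDNF receptor (-1.35 ± 0.27, adjusted p = 0.0017), the last with a matched pair difference of -0.03. With passage as a covariate, Lgr5, Tcf7, Notch2, Notch3, Cntn1, Smad9, Ski, Fgfr1 and Alk stayed called, whereas Ror2 (0.091), Fzd7 (0.076), Tgif1 (0.11), Met (0.095) and Ntrk2 (0.19) did not.

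**Figure D3:**
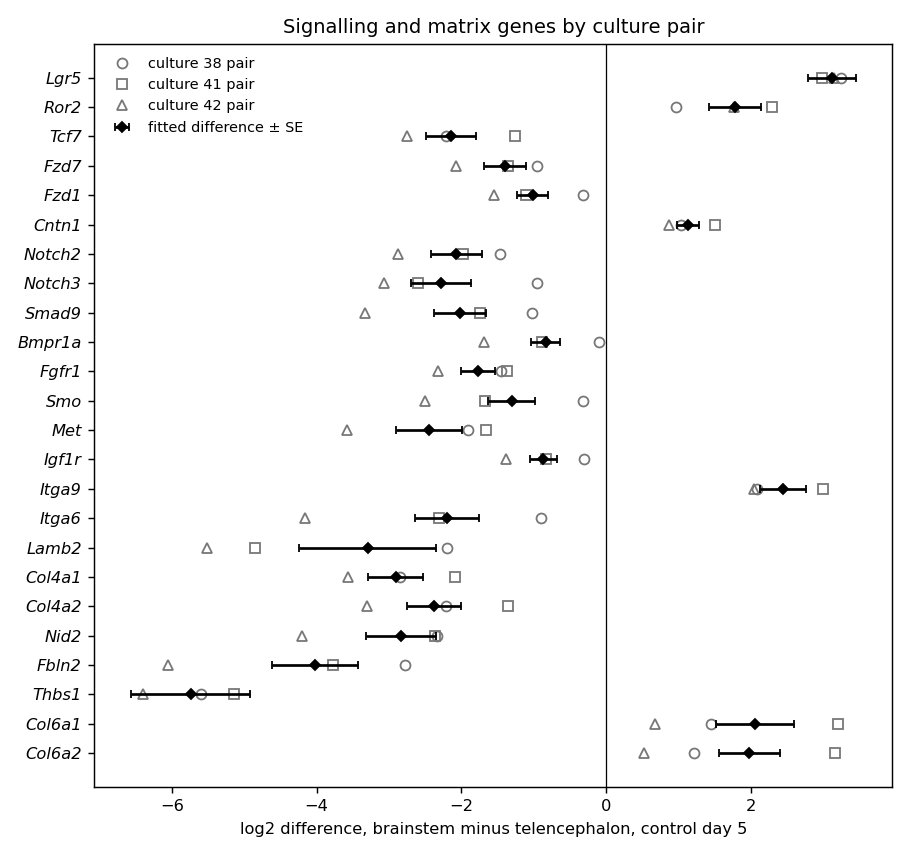
Log2 difference of brainstem minus telencephalon for 24 matrix, adhesion and signalling genes, with a marker for each of the 3 pairs of same-numbered cultures and the fitted difference ± SE. Lgr5 lay at 3.24, 2.99 and 3.15 in pairs 38, 41 and 42, Fgfr1 at -1.46, -1.37 and -2.33 and Bmpr1a at -0.10, -0.89 and -1.68.

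Of 75 axon guidance genes 3 were higher in brainstem and 11 lower. Sema3a, a secreted repellent, had 1.75 to 7.53 CPM in brainstem wells, median 5.36, and 0.533 to 1.40 CPM in telencephalon wells, median 0.728 (2.52 ± 0.49, adjusted p = 0.0010). Sema4b, a membrane semaphorin (-1.89 ± 0.28, adjusted p = 4.2e-05), Plxnb2, a semaphorin receptor (-1.15 ± 0.21, adjusted p = 6.2e-04), and Ephb4, an ephrin receptor (-4.31 ± 0.93, adjusted p = 0.0032), were lower. Teneurins, which join cells across synapses and other contacts, went in opposite directions: Tenm2 with 1.08 to 7.04 CPM in brainstem wells, median 3.47, and 0.223 to 0.771 CPM in telencephalon wells, median 0.501 (2.89 ± 0.40, adjusted p = 1.4e-05) and Tenm1 (1.75 ± 0.35, adjusted p = 0.0016) were higher, and Tenm3 with 3.02 to 6.43 CPM in brainstem wells, median 5.20, and 12.2 to 31.0 CPM in telencephalon wells, median 19.1 (-1.94 ± 0.23, adjusted p = 8.9e-07) was lower. No wells of the 2 regions overlapped for these 3 genes, and each stayed called with passage as a covariate.

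Clustered protocadherins, cell-surface recognition molecules made from neighbouring first exons, differed by cluster. Of 13 alpha genes 6 were higher in brainstem and none lower (median 0.81), and of 22 beta genes 4 were higher and none lower (median 0.38). Of 12 gamma-a genes 5 were lower and none higher (median -0.53), and of 7 gamma-b genes 5 were lower and none higher (median -0.92). Pcdha5 had 3.89 to 10.5 CPM in brainstem wells, median 7.25, and 1.09 to 2.67 CPM in telencephalon wells, median 1.89 (2.02 ± 0.32, adjusted p = 1.0e-04). Pcdhga8 had 6.13 to 10.4 CPM in brainstem wells, median 7.93, and 14.2 to 22.9 CPM in telencephalon wells, median 16.3 (-1.18 ± 0.18, adjusted p = 4.8e-05) and Pcdhgb6 5.79 to 11.5 CPM in brainstem wells, median 7.97, and 14.5 to 24.7 CPM in telencephalon wells, median 20.8 (-1.27 ± 0.20, adjusted p = 7.5e-05). The alpha genes share their last exons with each other, as do the gamma genes, so estimated counts can be divided between members of a cluster and values of single members are uncertain.

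Ion channels and transmitter receptors followed no common direction. Of 84 potassium channel genes 5 were higher and 11 lower. Kcnh2, the ERG channel, had 3.10 to 10.9 CPM in brainstem wells, median 4.33, and 1.16 to 2.47 CPM in telencephalon wells, median 1.61 (1.77 ± 0.26, adjusted p = 2.6e-05). The leak channels Kcnk2 (-2.80 ± 0.39, adjusted p = 1.7e-05) and Kcnk1 (-2.64 ± 0.44, adjusted p = 1.9e-04) and the calcium-activated channel Kcnn3 (-2.41 ± 0.39, adjusted p = 1.2e-04) were lower. Of 42 glutamate and GABA receptor genes 4 were higher and 6 lower. AMPA receptor subunits moved apart: Gria4 had 51.1 to 64.7 CPM in brainstem wells, median 55.5, and 20.6 to 36.0 CPM in telencephalon wells, median 25.6 (1.05 ± 0.15, adjusted p = 1.9e-05), and Gria1 29.5, 2.72 and 6.05 CPM in brainstem cultures against 107, 47.3 and 136 CPM in telencephalon (-2.90 ± 0.65, adjusted p = 0.0042). Gria1 was not called without brainstem culture 42 (0.062) and had a matched pair difference of -0.68.

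Lipid synthesis genes were called lower about as often as all genes (6.14%). None of 24 cholesterol synthesis genes was called, and 3 of 28 fatty acid and galactolipid genes were lower. Scd1, a stearoyl-CoA desaturase, had 211 to 346 CPM in brainstem wells, median 284, and 459.8 to 971 CPM in telencephalon wells, median 621 (-1.22 ± 0.25, adjusted p = 0.0018), and Srebf1, the transcription factor of fatty acid synthesis, 45.3 to 97.9 CPM in brainstem wells, median 60.2, and 116 to 319.7 CPM in telencephalon wells, median 156 (-1.40 ± 0.27, adjusted p = 9.0e-04). Both held in the leave-one-out fits, had matched pair differences of -0.53 and -0.44, and were not called with passage (0.10 and 0.075). Slc7a11, the cystine transporter of the integrated stress response list (4 of 20 lower, none higher), had 0.735 to 2.60 CPM in brainstem wells, median 1.25, and 13.7 to 111 CPM in telencephalon wells, median 31.2 (-4.47 ± 0.92, adjusted p = 0.0019). Mest, an imprinted gene of growth control, was lower with 9.33 to 14.6 CPM in brainstem wells, median 11.2, and 30.9 to 86.2 CPM in telencephalon wells, median 46.2 (-2.05 ± 0.38, adjusted p = 7.4e-04). Pmp22, a peripheral myelin protein, was lower too, with 2.37 to 5.85 CPM in brainstem wells, median 3.87, and 13.5 to 43.5 CPM in telencephalon wells, median 19.5 (-2.53 ± 0.46, adjusted p = 5.6e-04). Among 30 subunits and antagonists of the Polycomb complexes, which place and read H3K27 methylation, 3 were higher and 3 lower. The largest of these differences were those of Phf1 (-1.16 ± 0.25, adjusted p = 0.0036) and Cbx7 (-1.0 ± 0.26, adjusted p = 0.015). Ezh2, the methyltransferase (0.37 ± 0.11, adjusted p = 0.034), was not called without brainstem culture 41 (0.24), brainstem culture 42 (0.23), telencephalon culture 38 (0.064) or telencephalon culture 42 (0.21). Phf1 was not called without brainstem culture 42 (0.053) or telencephalon culture 42 (0.066), and Cbx7 without brainstem culture 41 (0.081), brainstem culture 42 (0.15) or telencephalon culture 42 (0.21).

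The same regional comparison was set beside proliferating control cells at day 0 and K27M cells at day 5. At day 0, 1080 genes (4.69%) were called, and in K27M cultures 1105 (4.80%). Of the 2010 genes of control day 5 cells, 318 were called in the same direction at day 0 and 2 in the opposite one, and 282 and 8 in K27M cultures. In all 3 comparisons 130 genes were called in 1 direction, 84 of them higher in brainstem. Hoxa2, Irx2, Pax3 and Emx2 were among those: the day 0 differences were 10.88 ± 0.57, 5.18 ± 0.50, 8.5 ± 0.78 and -8.21 ± 0.63, and the K27M differences 10.23 ± 0.57, 5.90 ± 0.54, 8.09 ± 0.77 and -8.18 ± 0.66.

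A test of the difference between days called 58 genes (0.252%). Col4a1 had 29.1 CPM in brainstem and 14.5 CPM in telencephalon at day 0 (0.97 ± 0.35), and its regional difference moved by -3.88 ± 0.51, adjusted p = 2.3e-04 to day 5. Col4a2 (-3.40 ± 0.51, adjusted p = 0.0015) and Gsn (-1.95 ± 0.32, adjusted p = 0.0032) moved the same way, with day 0 differences of 1.02 ± 0.35 and 0.53 ± 0.22. These 3 calls held in all 6 leave-one-out fits. Kcnk2 (-2.79 ± 0.53, adjusted p = 0.013) was lost without telencephalon culture 42, at an adjusted p of 0.057. Fgfr1 (-1.57 ± 0.32, adjusted p = 0.018), Kcnk1 (-2.73 ± 0.60, adjusted p = 0.035) and Kcnh2 (1.53 ± 0.35, adjusted p = 0.0496) were lost in 3 or more of these fits, at adjusted p of up to 0.18, 0.19 and 0.18. Brainstem culture 41 and telencephalon culture 42 were among the cultures each of them depended on.

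A test of the difference between genotypes called 512 genes (2.23%), among them 257 of the 1412 genes lower in control brainstem and 22 of the 598 higher. At day 5, K27M brainstem cultures 38, 41 and 42 were at passages 4, 2 and 4, against 4, 5 and 7 in controls. K27M telencephalon cultures were at passages 3 to 4, 1 and 1. The change between genotypes is therefore mixed with a change in passage. With passage as a covariate 404 genes were called. The median of the lower genes was -1.31 in controls and -0.15 in K27M cultures, where 64.2% kept their sign, and that of the higher genes 1.07 and 0.32, where 84.5% did, against 57.04% of all genes tested. The control medians are of genes chosen for their difference in those controls and are therefore the larger ones by choice. The counts of 257 and 22 carry that choice as well, because the test subtracts the same control difference. The astrocyte list had a median of -1.75 in controls and 0.21 in K27M cultures. Tenm3 had 37.8 CPM in K27M brainstem and 42.3 CPM in K27M telencephalon (-0.16 ± 0.22), a change of 1.77 ± 0.32, adjusted p = 0.0049, and of 27 named genes it alone was called in all 6 leave-one-out fits. Dmrta2 went further apart in K27M cultures (-4.45 ± 0.39, a change of -2.40 ± 0.49, adjusted p = 0.013), but not without brainstem culture 41 (0.071). Without brainstem culture 41 or telencephalon culture 42, 2 of the 27 were left, without brainstem culture 42 5 and without telencephalon culture 38 15, and the count over all genes was 42, 17, 34 and 253 in the same order.

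**Figure D4:**
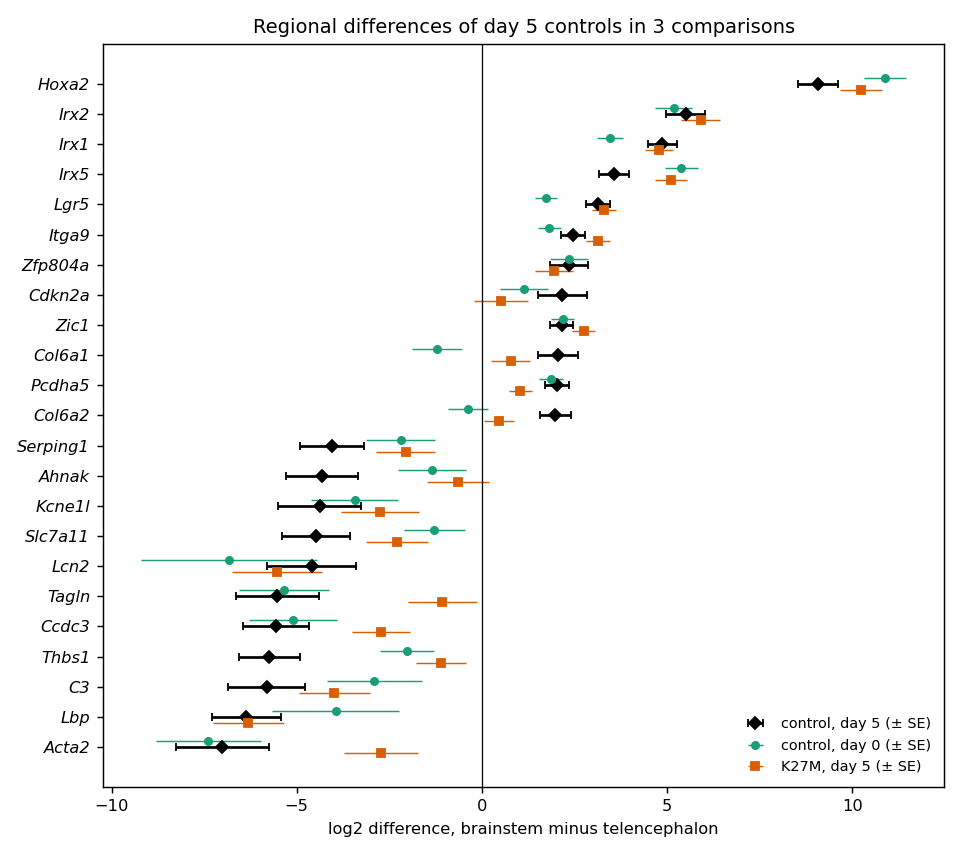
Log2 difference of brainstem minus telencephalon ± SE for 23 genes in control cells at day 5, control cells at day 0 and K27M cells at day 5. Hoxa2, Irx1, Irx2 and Irx5 kept their direction in all 3 comparisons, and Thbs1 lay at -5.74 ± 0.83, -2.04 ± 0.73 and -1.12 ± 0.68.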

How the data were processed

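Per the labels and the study's methods, the authors sequenced paired-end total RNA libraries and quantified them with Salmon 1.10.1 against mm10 with Gencode vM25 annotation, correcting sequence and GC bias. The deposited tables list estimated counts (NumReads) and TPM per transcript. TPM, scaled by the authors for length and library, was used only for the level of Hox genes in the tables. Estimated counts were summed per gene with GENCODE release M21, not the authors' release (139821 of 141084 transcripts matched, 54127 genes), and the 3 wells of a culture and day were summed, so cultures were the replicates. All 48 sums of the series' 16 groups, rounded to whole numbers, entered edgeR 4.0.16 (R 4.3.3; quasi-likelihood test, TMM, filterByExpr) with the culture number as a block, and SE was taken as the log2 difference divided by the square root of F. The 95% intervals are normal intervals from that SE. Adjusted p under 0.05 counted as called. Alternatives used limma 3.58.1 with a prior count of 2 and DESeq2 1.42.0. Tables and plots were made with Python 3.11.15, pandas 2.3.3, numpy 2.4.6, scipy 1.17.1 and matplotlib 3.10.9. The scripts were tested on simulated data.

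The groups and the 46 gene lists were chosen with earlier results of these data known. Named genes were those called with the same sign in all 3 culture pairs and at least 5 CPM in the higher region (the 12 highest and 12 lowest), up to 5 called genes per list with the smallest p and at least 1 CPM, the 6 most abundant members of the myelin, OPC and lineage factor lists, and Hox genes of at least 1 CPM. Tmem119, Csf1r, Pecam1, En2, Pdgfra, Gfap, Aqp4, Axin2, Hoxa6 and Hoxd9 were added after their values were seen. Some genes that the rule names are not reported here. That wells of a culture are separate cultures is not stated, and intervals on counts cover counting error only. Depth was 35.6 to 56.4 M counts, with 455 M counts in 1 library, and 0.254 to 0.332% of counts had no matched gene. No 2 wells agreed within sampling noise (mean chi-square per gene 4.02 to 99.6). In telencephalon culture 42, wells of passage 1 gave 4.02 with each other and 99.6 and 87.9 against the well of passage 2. In telencephalon culture 38, with all wells at passage 2, values were 5.29 to 29.9.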

Additional observations from a re-analysis of the deposited data

Results flagged for a closer look

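In 438 checks of 9 wells each for a single distant value, 4 were found, and chance alone gives about 1 in 20. Gria4 was 64.7 CPM in well 3 of brainstem culture 38, the deepest library, against 51.1 to 57.0 CPM in the other brainstem wells, and the imprinted genes summed to 1728 CPM in that well against 1351 to 1526 CPM. Hoxa3 was 0.121 CPM in well 3 of telencephalon culture 41 against 0 to 0.0296 CPM in the others. Alk was 1.39 CPM in well 2 of telencephalon culture 41 against 2.34 to 2.94 CPM.

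By edgeR's test of the difference itself, the regional log2 difference of 7 named genes changed from day 0 to day 5, with negative values where it moved toward telencephalon: Gsn -1.95, Col4a1 -3.88, Col4a2 -3.40, Fgfr1 -1.57, Kcnk2 -2.79, Kcnk1 -2.73 and Kcnh2 1.53. The same test between K27M and control cells called 27 named genes. Over all genes, 446 of the 512 called (87.11%) moved toward brainstem. Named genes were mostly chosen for a call in control cells, and the test subtracts that control difference. A move against the control difference is therefore partly built into the values below. The differences of contractile, matrix and adhesion genes moved toward brainstem in K27M cultures: Thbs1 by 4.63, Myl9 by 3.44, Nid2 by 2.49, Col4a1 by 2.23, Itga3 by 2.09, Col5a1 by 1.79, Dag1 by 1.25, Emid1 by 3.58 and Vcan by 1.28. Signalling genes did too: Nbl1 by 2.35, Notch2 by 2.17, Smad9 by 1.82, Tcf7 by 1.78, Smo by 1.73, Fzd1 by 1.58, Fzd7 by 1.57, Fgfr1 by 1.27 and Bmpr1a by 1.19. So did the guidance and recognition genes Sema4b (1.89), Tenm3 (1.77), Plxnb2 (1.43), Pcdhga8 (1.33) and Pcdhgb1 (1.20), the cilia genes Rsph1 (3.61) and Dnah9 (2.44), and Srebf1 (1.61), while Dmrta2 moved toward telencephalon (-2.40). Without brainstem culture 41 or telencephalon culture 42, 2 of these 27 stayed called.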

How the results depend on the processing

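For control cells at day 5, 2010 genes were called, 29.75% of them higher in brainstem. The count was 8512 with wells as replicates (50.15% higher), 5027 with DESeq2 on the 18 wells and a fold threshold of 1.1 (41.14%), 336 with passage as a covariate (41.67%), 1269 without a filter on low counts, 965 without 5 brainstem wells (all of culture 41 and 2 of culture 42; an alternative chosen after seeing the data, as was leaving out the deepest well), and, from the 6 culture sums alone, 11 with the replicate block (63.64%) and 30 without it (46.67%). Leaving out 1 culture gave 547 to 4089 calls. Size factors of DESeq2 (2099), length offsets (1731), a mean CPM of at least 1 (2092 of 14098), DESeq2 on the sums (2733) and limma (2743) stayed within 1.5 times.

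The replicate block rests on culture numbers. Deviations of same-numbered cultures correlated at 0.324, 0.38 and -0.133 for 38, 41 and 42. Brainstem culture 42 correlated best with telencephalon culture 41 (0.285). These values gave no clear pairing, yet the main fit kept the block and the naming rule used same-numbered pairs. Without the replicate block 1518 genes were called, 371 higher and 1147 lower, with 149 of the 159 named genes among them, but not Evi2a (adjusted p 0.052 by edgeR), Hes1 (0.055) and Ezh2 (0.21).

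The 1080 calls of day 0 became 7147 with wells, 691 without a filter, 1872 with DESeq2 and 468 with passage (1028 to 1290 without 1 culture). The 1105 calls of K27M cells became 6422 with wells and 2055 with passage (1116 to 1541). The 58 differences between days became 34 without the replicate block, 4703 with wells, 32 with length offsets, 33 without a filter, 117 at a CPM of at least 1, 364 with DESeq2, 154 with limma, 216 with passage, 99 without the deepest well and 27 without 5 brainstem wells (14 to 968). The 512 differences between genotypes became 309, 5870, 333, 201, 965, 1049, 956 and 41 under the replicate block left out, wells, length offsets, no filter, DESeq2, limma, no deepest well and no 5 brainstem wells (17 to 3408). Of named genes, Col3a1 turned to 0.48 with passage (adjusted p 0.93 by edgeR), and 1 of the 159 called genes turned direction without brainstem culture 38. The cause of these changes was not tested.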
